A study of Drosophila melanogaster with 7 samples.

Results

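ROW regions are the intervals of Drosophila melanogaster chromatin called as bound by ROW, a zinc-finger protein, in a chromatin immunoprecipitation and sequencing (ChIP-Seq) experiment. All 8999 intervals of the ROW list were taken, of 29798 in the 5 lists of the study. The material was S2 cells, an established line derived from embryos, grown without any treatment or mutation given in the labels. Chromatin from sonicated nuclei was precipitated with a polyclonal rabbit antibody against ROW, and the other immunoprecipitations used antibodies against Z4 (raised in guinea pig), WOC, Dsk2 and HP1c (raised in rabbit). ROW, Z4 and WOC were called against 1 input library, and Dsk2 and HP1c against the other, per the labels. Each antibody gave 1 library, so no value below has a replicate or a test.

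ROW, the relative of WOC, is a nuclear protein with several zinc fingers, and it is known together with WOC as a partner of HP1c, a member of the heterochromatin protein 1 family that sits in euchromatin. WOC is a zinc-finger protein too, and both WOC and ROW are known to be needed for HP1c to bind polytene chromosomes. Dsk2, a ubiquilin, binds ubiquitin. Z4 is a zinc-finger protein of the interbands, the decondensed stretches between the bands of polytene chromosomes.

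The lists give a chromosome, a start and an end for each region and no score, height or read number. The depth of the libraries is therefore unknown, and a region's width gives the extent of the called interval, not how strong the signal was. No list has neighbouring regions with fewer than 300 bp between them. Close calls may thus have been joined, and a wide region may include stretches below the caller's threshold, which was not tested. Positions are printed as deposited, in the dm3 build, and width is end minus start plus 1. Whether the end position belongs to the interval is not given. The 200 ROW regions with equal start and end were thus taken as 1 bp wide. With end positions left out and regions of no length dropped, the median ROW width was 254 bp and 58.2% of ROW regions overlapped Z4. Intervals given with shares are exact binomial (Clopper-Pearson) 95% confidence intervals. They stand for counting error alone and take regions as independent. Regions were not assigned to genes, because the gene annotation at hand is of a later release, and no genome sequence was used here.

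ROW regions spanned the full range from regions of 1 bp (200 of them) to domains of many kilobases, and the list had both more narrow calls and more broad domains than that of Z4. The median width was 245 bp for ROW, against 352 bp for Z4, 205 bp for WOC, 216 bp for Dsk2 and 121 bp for HP1c. The quartiles of the ROW list lay at 69 and 604 bp, and those of the Z4 list at 151 and 585 bp. The ROW list thus spread further than the Z4 list toward both narrow and broad regions. Regions of under 50 bp made up 21.9% of the ROW list (1969 regions, interval 21.0 to 22.75%), against 15.65% of the Z4 list (14.8 to 16.5%). Such regions made up 16.8% of the WOC list and 18.4% of the Dsk2 list, but 29.0% of the HP1c list, more than in ROW. Regions of at least 1 kb made up 13.2% of the ROW list (1185 regions, 12.5 to 13.9%), against 7.02% of the Z4 list (6.45 to 7.62%), 1.35% of the WOC list, 2.06% of the Dsk2 list and 0.701% of the HP1c list.

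In terms of covered length, the broad ROW regions outweighed all others. The 1185 regions of at least 1 kb held 52.3% of the 4.40 Mb covered by ROW, whereas the corresponding shares were 24.9% for Z4, 6.84% for WOC, 10.45% for Dsk2 and 5.37% for HP1c. The 1969 narrowest ROW regions (under 50 bp) held 0.854% of the ROW length. The intermediate classes numbered 2024 regions of 50 to under 200 bp, 2293 of 200 to under 500 bp and 1528 of 500 bp to under 1 kb, with 5.44%, 16.95% and 24.5% of the length. The 817 regions of 1 to under 2 kb and the 368 regions of at least 2 kb held 25.4% and 26.9%. Counted from the widest down, 1088 regions (12.1% of the list) were enough for 50% of the ROW length, while Z4 needed 20.9% of its list. There were 32 ROW regions of at least 5 kb, against 5 for Z4 and 0 for each of WOC, Dsk2 and HP1c.

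**Figure D1:**
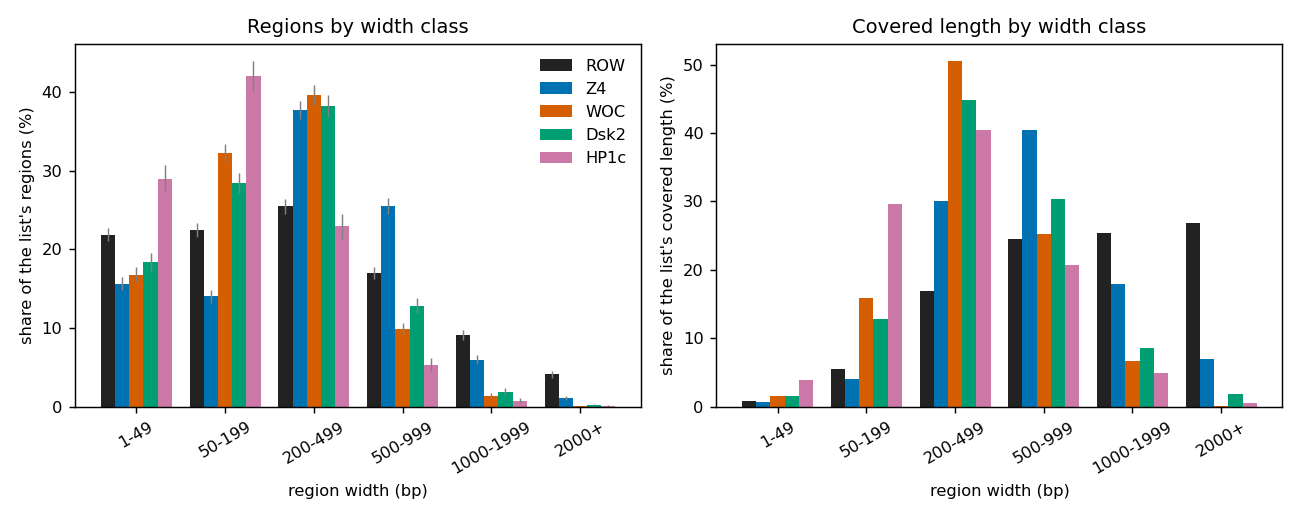
Share of each list's regions (left, %, bars from 0, with exact 95% intervals as grey lines) and of its covered length (right, %) in 6 classes of region width in bp, for ROW, Z4, WOC, Dsk2 and HP1c. ROW had 13.2% of its regions but 52.3% of its length in the last 2 classes, of at least 1 kb.

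The widest ROW regions were spread over 4 arms, and 4 of the 10 widest lay within 10 kb of another of the 10. By arm, 4 lay on 2R, 4 on 3R, 1 on 2L and 1 on X. The widest (18231 bp, 2R from 6970003 to 6988233) and the one ranked 6 (8368 bp, 2R from 6957220 to 6965587) were separated by 4415 bp, and the one ranked 5 (8754 bp, 2R from 7072955 to 7081708) followed 84721 bp further on. On 3R, the region ranked 2 (12602 bp, 19160541 to 19173142) and the region ranked 10 (7394 bp, 19144961 to 19152354) lay 8186 bp apart. The others of the 10 were 11792 bp on 3R (25597985 to 25609776), 8855 bp on 2L (491145 to 499999), 7946 bp on 2R (7520383 to 7528328), 7737 bp on 3R (3937756 to 3945492) and 7623 bp on X (17181515 to 17189137).

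Wide domains differed in what they held. All 10 overlapped Z4, but the Z4 regions covered from 25.9% of the domain on X at 17181515 to 89.25% of the domain on 3R at 25597985. HP1c was missing from 4 of the 10, namely the domains starting at 6970003 and 6957220 on 2R, at 491145 on 2L and at 17181515 on X. The 2R domain at 6957220 had 7 Z4 regions and 1 WOC region and no Dsk2 or HP1c region. The 3R domain at 25597985 carried 6 HP1c, 7 Dsk2 and 6 WOC regions, and HP1c covered 30.3% of its bases. The ROW region that overlapped most regions of the other lists was not among the 10 widest. It was 7370 bp on X (7597430 to 7604799), with 7 Z4, 6 WOC, 6 Dsk2 and 5 HP1c regions, 24 in all.

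Wider ROW regions shared bases with other proteins more often, and Z4 was the most frequent companion in every width class. Z4 overlapped 57.9% of all ROW regions (5207 of 8999), WOC 22.4% (2018 regions), Dsk2 19.5% (1759 regions) and HP1c 7.61% (685 regions). Among regions of under 50 bp, Z4 was found at 22.8% (interval 21.0 to 24.7%), WOC at 7.47%, Dsk2 at 6.145% and HP1c at 2.08%. Among those of 200 to under 500 bp the shares were 60.3% for Z4, 17.75% for WOC, 15.8% for Dsk2 and 4.405% for HP1c. In the class of at least 2 kb they reached 98.6% for Z4 (363 of 368), 70.1% for WOC (258 of 368), 64.1% for Dsk2 (236 of 368) and 38.0% for HP1c (140 of 368). The intervals of the narrowest and the widest class did not overlap for any of the 4 proteins, and for HP1c they were 1.498 to 2.81% and 33.1 to 43.2%. All 4 proteins together were present at 0.914% of the narrowest regions (18 of 1969) and at 37.2% of the widest (137 of 368), with 5.87% over the whole list. With only the midpoint of a ROW region counted, the shares over the whole list were 36.5% for Z4, 8.73% for WOC, 7.37% for Dsk2 and 1.87% for HP1c, and 60.4% of ROW regions then had no other protein.

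A wide interval has more room for another region, so the share of ROW bases covered was also computed, which does not grow with room. By this measure the gradient was much flatter. Z4 covered 27.3% of ROW bases in regions of under 50 bp, 36.4% at 50 to under 200 bp, 32.55% at 200 to under 500 bp, 39.7% at 500 bp to under 1 kb, 38.6% at 1 to under 2 kb and 48.8% at 2 kb or more. WOC covered 7.53% of the bases in the narrowest class and 11.3% in the widest, Dsk2 6.05% and 10.99%, and HP1c 2.23% and 4.002%. The coverage in regions of at least 1 kb exceeded that in regions under 200 bp by 8.71 percentage points for Z4, 4.29 for WOC, 4.29 for Dsk2 and 1.83 for HP1c. For Z4 the difference was 15.6 points when regions of at least 2 kb were set against those under 500 bp. For comparison, Z4 covered 2.67% of the span of the 5 large arms, WOC 1.21%, Dsk2 1.09% and HP1c 0.391%.

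**Figure D2:**
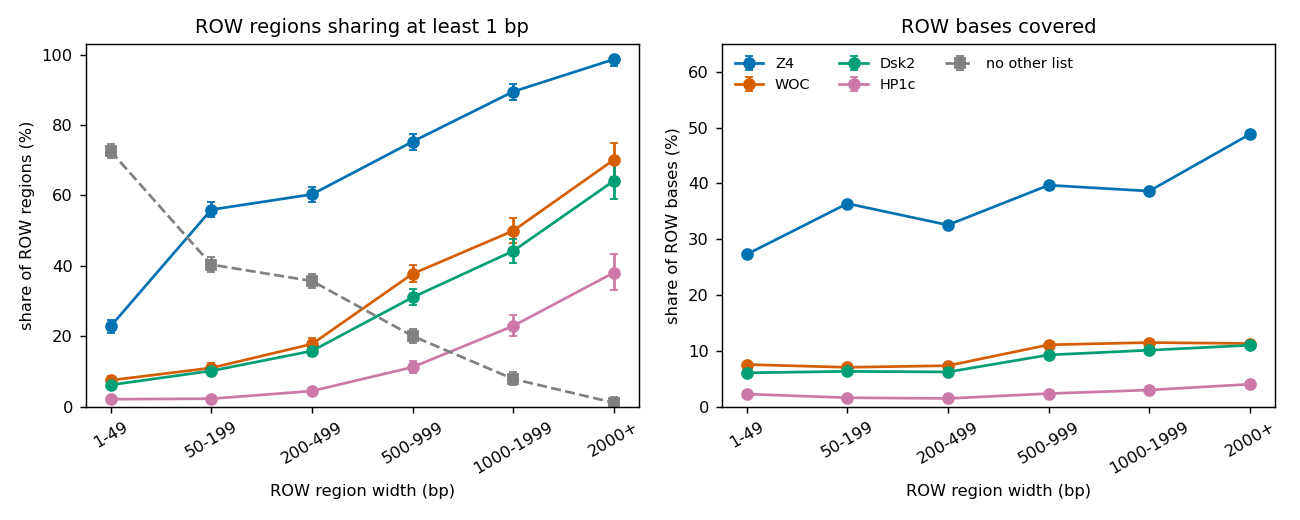
Left, share of ROW regions (%) in 6 width classes (bp) that share at least 1 bp with Z4, WOC, Dsk2, HP1c or no other list, with exact 95% intervals; right, share of ROW bases (%) covered by each of the 4 lists. The overlap with Z4 was 22.8% in the narrowest and 98.6% in the widest class, while the covered bases were 27.3% and 48.8%.

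Z4 without any other protein was the most frequent company of a ROW region, and the other proteins seldom occurred with ROW where Z4 was missing. ROW with Z4 alone was found at 36.2% of the list (3259 regions). Only 3.94% (355 regions) overlapped WOC, Dsk2 or HP1c without Z4, while 3792 ROW regions in all lacked Z4. Over the whole lists, Z4 covered 58.25% of WOC bases, 57.5% of Dsk2 bases and 35.3% of HP1c bases. These are shares of bases, not of regions, and the lists include the parts inside ROW regions. Whether Z4 accompanied these proteins more often inside ROW regions than outside was not computed. Among the 1185 regions of at least 1 kb, 407 had Z4 alone, 298 had all 4 proteins and 265 had Z4, WOC and Dsk2 without HP1c. Z4 with WOC alone was found at 80 of them and Z4 with Dsk2 alone at 17. Among the 3993 regions under 200 bp, 1300 had Z4 alone and 47 all 4.

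ROW regions that overlapped no other list numbered 3437 (38.2%) and were mostly narrow. Their median width was 98 bp, 41.6% of them were under 50 bp wide, and they held 15.4% of the ROW length. The share with no other protein was 72.6% among regions of under 50 bp, 40.3% at 50 to under 200 bp, 35.7% at 200 to under 500 bp, 20.03% at 500 bp to under 1 kb, 7.83% at 1 to under 2 kb and 1.09% (4 regions) at 2 kb or more. Most such regions were not remote from the other proteins, since the nearest region of another list lay within 1 kb for 66.3% of them (median 510 bp) and beyond 10 kb for 3.61%. The widest were 2487 bp on 2R (2766420 to 2768906), 2270 bp on 2R (20892454 to 20894723) and 2233 bp on 3R (11816572 to 11818804).

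ROW regions stood close to each other, and among the gaps present, which began at 300 bp, the shortest were the most frequent. The gap is counted here as the bases between neighbouring regions, and its smallest value was 300 in each of the 5 lists. Whether calls closer than that were joined is not given, so shorter gaps cannot be counted. Another ROW region lay within 1 kb of 60.5% of ROW regions (5447 regions, interval 59.5 to 61.5%). The same share was 40.9% in the Z4 list (39.8 to 42.0%), 26.2% for WOC, 25.65% for Dsk2 and 28.5% for HP1c. A longer list has shorter gaps in any case, and this was not corrected for. Within 500 bp, 36.04% of ROW regions had a ROW neighbour. Gaps of 300 to under 400 bp numbered 1054, those of 400 to under 500 bp 761 and those of 500 to under 600 bp 521, while each step of 100 bp between 2 and 3 kb held from 60 to 90. The median gap was 2150 bp and the mean 17605 bp.

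Close spacing was common to all widths. The share with a ROW neighbour within 1 kb was 59.7% in the class of under 50 bp, 57.2% at 50 to under 200 bp, 60.7% at 200 to under 500 bp, 59.95% at 500 bp to under 1 kb, 66.6% at 1 to under 2 kb and 71.5% at 2 kb or more. Of regions of under 50 bp, 9.40% lay within 1 kb of a region of at least 1 kb (185 of 1969). This share was 6.92% at 50 to under 200 bp, 10.9% at 200 to under 500 bp and 14.5% at 500 bp to under 1 kb. How much of the genome lies that near to a broad region was not computed. The widths of neighbours were nearly unrelated. Across the 3358 gaps of at most 1 kb, Spearman's rho between the widths on the left and on the right was 0.13, given here as a description.

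The short gaps between ROW regions held HP1c, Dsk2 and WOC more densely than the ROW regions themselves, and Z4 less densely. The 3358 gaps of at most 1 kb added up to 1769.5 kb, with a median of 475.5 bp. HP1c covered 7.06% of their bases and 2.75% of the bases of ROW regions, a ratio of 2.57. Dsk2 covered 18.6% of gap bases and 9.23% of ROW bases (ratio 2.01), and WOC 18.7% and 10.35% (ratio 1.81). Z4 was the exception, with 22.7% of gap bases and 40.4% of ROW bases (ratio 0.563). This did not hold where exactly 2 ROW regions stood within 1 kb of each other and apart from others. There Z4 covered 39.0% of gap bases and 37.9% of ROW bases. When gaps of up to 2 kb were counted, the HP1c ratio was 1.85.

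Counted by gaps, a WOC region was present in 1359 of the 3358 (40.5%), a Dsk2 region in 1265 (37.7%), a Z4 region in 1256 (37.4%) and an HP1c region in 759 (22.6%). No region of another list was present in 1441 (42.9%). Over all 8986 gaps between ROW regions, of any length, the shares were 43.1% for WOC, 37.15% for Dsk2, 48.15% for Z4, 22.1% for HP1c and 35.0% for none. By count, short gaps thus held HP1c and Dsk2 about as often as all gaps did, although they are far shorter. Of the 759 short gaps with HP1c, 540 (71.15%) held both WOC and Dsk2, against 71.2% of all gaps with HP1c (1416 of 1989). The share of gaps with HP1c was 17.7% at 300 to under 400 bp, 20.9% at 400 to under 500 bp, 26.8% at 500 to under 750 bp and 26.6% at 750 bp to under 1 kb. The ROW regions on both sides were wider where the gap held HP1c (median 327.5 bp) than where it did not (257 bp). For Z4 the order was the other way, with medians of 205.5 bp beside gaps with Z4 and 339 bp beside those without.

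Across the gap, HP1c, Dsk2 and WOC coverage peaked near the centre and was lowest toward the ROW edges. HP1c covered 9.47% of gap centres, 3.90% of first gap positions and 4.38% of last ones. WOC covered 21.7% of centres, against 12.4% and 13.4% at the ends, and Dsk2 20.9% against 11.8% and 12.5%. Z4 was nearly flat within the gap, with 22.7% at the centre and 23.5% and 25.1% at the ends. Because gaps differ in length, positions were scaled to a common length for this profile.

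**Figure D3:**
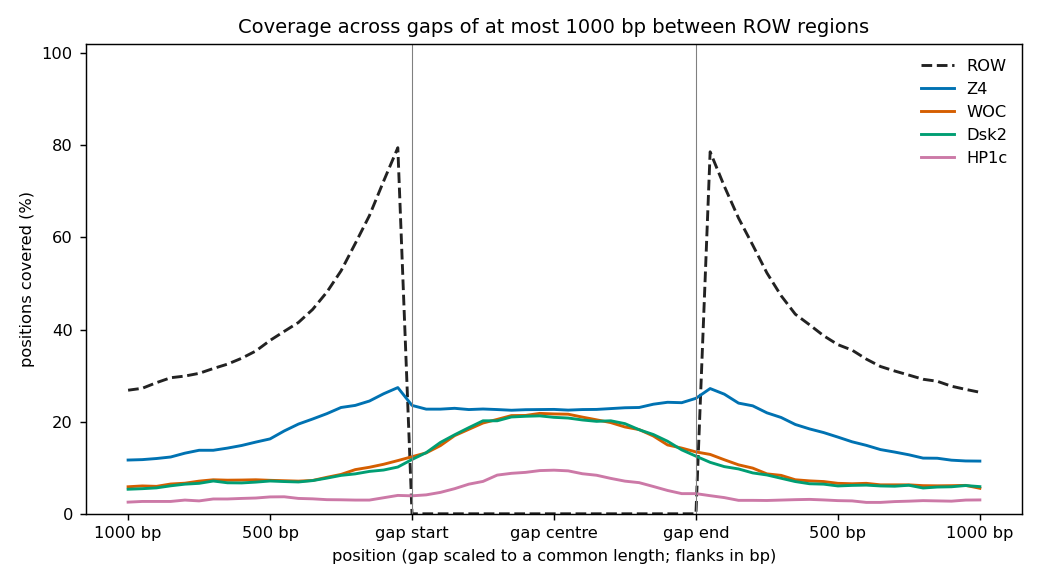
Share of positions (%) covered by each list across the 3358 gaps of at most 1000 bp between neighbouring ROW regions, with gaps scaled to a common length and 1000 bp of flank on each side in bp. ROW is at 0 inside the gap by construction; HP1c reached 9.47% and WOC 21.7% at the centre, while Z4 stayed near 22.7%.

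Among the chains of neighbouring ROW regions, those of exactly 2 regions allow the side facing the gap to be set against the side facing away. There were 1396 such isolated pairs, with a median gap of 483 bp and medians of 403.5 bp for the wider and 88.5 bp for the narrower partner. At 200 bp beyond the inner edges, Z4 covered 41.3% of 2792 positions, against 6.09% beyond the outer edges. WOC covered 32.3% beyond inner and 4.01% beyond outer edges, Dsk2 28.5% and 3.80%, and HP1c 6.81% (interval 5.90 to 7.80%) and 1.86% (1.39 to 2.43%). All 4 proteins therefore lay more often on the side of the ROW neighbour. The outer side has no ROW region within 1 kb, since that is how the pairs were chosen. In the shortest gaps both inner positions fall close together, so the 2792 positions are not independent. With pairs joined at no more than 500 bp, the ratio of inner to outer for HP1c was 2.06, against 3.65 at 1 kb.

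**Figure D4:**
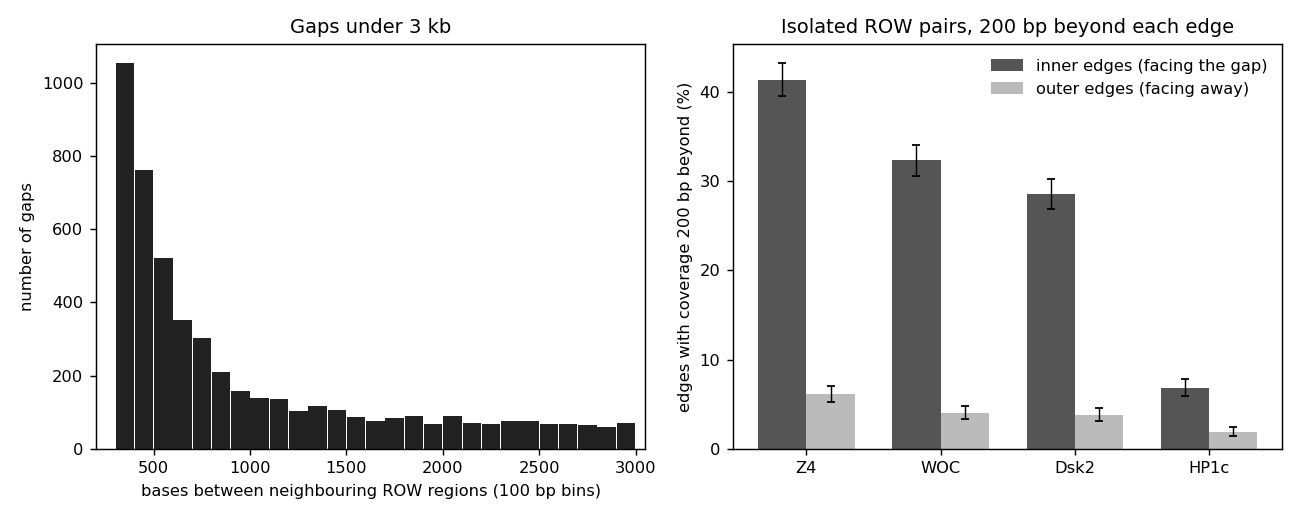
Left, number of gaps between neighbouring ROW regions in 100 bp bins from 300 bp to 3 kb; right, share of inner and of outer edges of the 1396 isolated ROW pairs (%) at which a position 200 bp beyond the edge was covered by Z4, WOC, Dsk2 or HP1c, with exact 95% intervals. The first bin held 1054 gaps, and inner edges exceeded outer edges for all 4 proteins.

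Gaps in longer chains had a different make-up from gaps in pairs. In pairs, Z4 covered 39.0% of gap bases, WOC 26.35%, Dsk2 24.1% and HP1c 5.405%. In the 1962 gaps of chains with at least 3 regions, Z4 covered 10.9%, WOC 13.2%, Dsk2 14.6% and HP1c 8.26%. In the 666 gaps of chains with at least 5 regions, Z4 was at 5.875%, WOC at 11.3%, Dsk2 at 13.8% and HP1c at 10.1%. Z4 was thus the protein with most bases in the gaps of pairs and the one with fewest in those of the longest chains, while HP1c was denser in longer chains. The difference between pairs and chains of at least 3 was 28.1 percentage points for Z4 and -2.86 for HP1c. For HP1c it was -1.86 with a joining distance of 500 bp and -1.50 with 2000 bp. Z4 bridged the whole gap in 26.4% of pairs (369 of 1396) and in 5.81% of the gaps of longer chains.

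The ROW regions of longer chains overlapped Z4 less often and HP1c more often. Z4 overlapped 63.2% of regions with no ROW neighbour within 1 kb, 59.2% of regions in pairs, 50% in chains of 3 to 4 and 47.7% in chains of 5 to 14. HP1c overlapped 5.52%, 6.20%, 10.9% and 14.2% of them. The regions with ROW neighbours were also wider in longer chains, with median widths of 228 bp without a neighbour, 218.5 bp in pairs, 311 bp in chains of 3 to 4 and 354 bp in chains of 5 to 14. In covered bases, Z4 had no steady order, with 45.7% of ROW bases in regions without a neighbour, 37.9% in pairs, 35.98% in chains of 3 to 4 and 39.9% in chains of 5 to 14. HP1c covered 2.09%, 1.79%, 3.35% and 5.15% of ROW bases in the same order of chains.

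Joining neighbours at up to 1 kb reduced the 8999 regions to 5641 chains. Of these, 3552 were single regions, 1396 pairs and 693 chains of at least 3, and the last held 29.5% of the ROW regions (2655 regions). This share was 10.7% when neighbours were joined at up to 500 bp and 45.6% at up to 2 kb. The chain with most regions lay on 3R from 11844771 to 11859489, with 14 ROW regions, which overlapped 6 Z4 regions but no WOC, Dsk2 or HP1c region. The next lay on 3L from 8672082 to 8692763 with 13 ROW regions, which overlapped 9 Z4, 2 WOC, 1 Dsk2 and 0 HP1c regions. Of 2 chains with 11 ROW regions, the longer lay on 3L from 19068590 to 19086203, and its regions overlapped 11 Z4, 5 WOC, 5 Dsk2 and 2 HP1c regions. The longest chain by extent was that of the domains on 3R, from 19140417 to 19174394, where 8 ROW regions covered 90.1% of 33978 bp.

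Seen from the other lists, a sizeable part of HP1c lay in the short ROW gaps. Of HP1c midpoints, 23.9% (648 of 2711, interval 22.3 to 25.55%) were in gaps of at most 1 kb between ROW regions and 21.5% (582, 19.9 to 23.1%) inside ROW regions. For Dsk2 the shares were 20.05% in gaps and 26.2% inside, and for WOC 16.1% and 27.4%. Z4 had 11.2% in gaps and 48.2% inside. In each list the remaining midpoints, from 40.6% for Z4 to 56.5% for WOC, lay elsewhere. Broad ROW regions of at least 1 kb were touched by 24.8% of Z4 regions, 15.7% of WOC regions, 16.55% of Dsk2 regions and 15.05% of HP1c regions.

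ROW density differed between chromosome arms, and 2R stood highest while X stood lowest among the 5 large arms. The list held 1884 regions on 2R, 2176 on 3R, 1802 on 3L, 1575 on 2L and 1413 on X. Densities were 89.2 regions per Mb on 2R, 78.1 on 3R, 73.6 on 3L, 68.6 on 2L and 63.1 on X, a ratio of 1.41 between 2R and X. Of the large arms, 2R was also the densest in each of the other lists (72.2 per Mb for Z4, 51.0 for WOC, 42.0 for Dsk2, 25.9 for HP1c). X was the poorest in the Z4 list too (54.7 per Mb), but not in the WOC, Dsk2 or HP1c list. Because regions on 2R were also wider (median 281 bp, against 187 bp on X), the contrast in covered bases was larger, with 47.5 kb per Mb on 2R and 25.4 kb per Mb on X, a ratio of 1.87. Chromosome 4, the small dot chromosome, had 67 regions (55.3 per Mb) and a median width of 203 bp.

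The X chromosome had narrower ROW regions and less Z4 on them than the 4 large autosomal arms. Regions of at least 1 kb made up 9.98% of ROW regions on X (141 of 1413, interval 8.465 to 11.7%), against 13.9% on the autosomal arms (1031 of 7437, 13.1 to 14.7%). Regions under 50 bp made up 28.3% on X and 20.6% on the autosomal arms. Z4 overlapped 45.1% of ROW regions on X and 60.2% on the autosomal arms, and 48.3% on X had no other protein, against 36.3%. By overlap, the share with Z4 was lower on X in the 5 classes under 2 kb, with 21.5% on X and 23.1% on the autosomal arms under 50 bp, but not at 2 kb or more, where it was 100% on X (40 of 40) and 98.5% on the autosomal arms. Z4 coverage of ROW bases was lower on X in each of the 6 width classes, for example 25.6% on X and 38.6% on the autosomal arms at 50 to under 200 bp, and 41.2% and 49.7% at 2 kb or more. The Z4 list itself covered 1.90% of the X span, against 2.52% (2L) to 3.48% (2R) of the autosomal arms. Lower Z4 coverage on X was thus not particular to ROW regions. Over all widths, WOC covered 10.1% of ROW bases on X and 10.3% on the autosomal arms, Dsk2 8.67% and 9.29%, and HP1c 2.74% and 2.77%. By width class, WOC coverage was higher on X under 200 bp and at 2 kb or more, and lower in between. It was 12.4% on X and 5.62% on the autosomal arms at 50 to under 200 bp, and 6.82% and 11.6% at 500 bp to under 1 kb. HP1c also had no steady order across the classes. On chromosome 4, no ROW region overlapped HP1c (0 of 67). The HP1c list had only 10 regions there, which covered 0.0553% of the span, against 0.336% (3L) to 0.487% (2R) on the large arms. The missing overlap therefore says little about ROW regions.

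**Figure D5:**
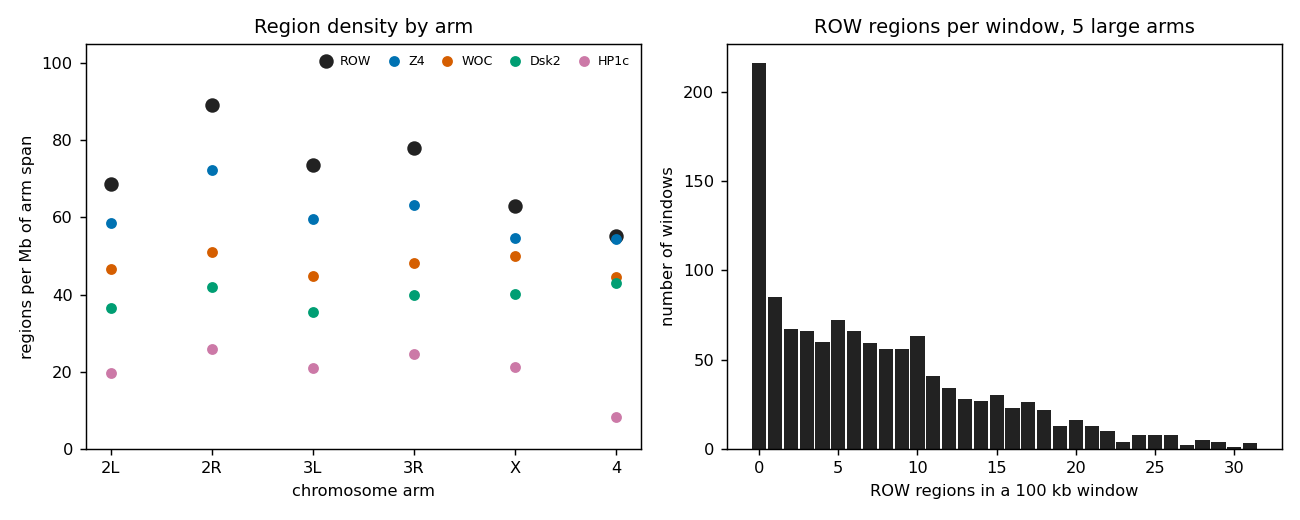
Left, regions per Mb of arm span for each list on the 5 large arms and chromosome 4; right, number of fixed 100 kb windows of the 5 large arms by how many ROW regions they held. ROW was densest on 2R (89.2 per Mb), and 216 windows held no ROW region while 3 held 31.

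At the scale of 100 kb, ROW regions were unevenly spread. Of 1192 windows on the 5 large arms, 216 (18.1%) held no ROW region, the median was 6, and 82 windows (6.88%) with at least 20 regions held 21.9% of all ROW regions on these arms. The 3 densest windows held 31 ROW regions each and lay on 3R (11800001 to 11900000), 2R (9800001 to 9900000) and 2R (12000001 to 12100000). They were followed by 30 regions on 3R (12000001 to 12100000) and 29 on 3L (3400001 to 3500000), the one with most ROW bases of 4 windows with 29. Shifting the windows by 50 kb gave a highest count of 39.

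Densely occupied windows did not hold the proteins in fixed proportion. The first of them, on 3R at 11800001, contained the chain of 14 regions and had 27.6 kb of ROW, with 16 Z4, 7 WOC, 5 Dsk2 and 5 HP1c regions. The window on 2R at 9800001 had 18.0 kb of ROW, with 22 Z4, 20 WOC, 16 Dsk2 and 13 HP1c regions. Across all 1192 windows, the number of ROW regions went with that of Z4 (Pearson r 0.902, Spearman rho 0.92), WOC (r 0.841, rho 0.87), Dsk2 (r 0.825, rho 0.854) and HP1c (r 0.735, rho 0.743). These values describe windows that share neighbours and genome content, and ROW, Z4 and WOC also share an input.

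With each large arm cut into 10 equal segments, the segment next to the centromere was the poorest in ROW when the arms were pooled, but not on every arm. Over the 5 large arms together it held 53.8 regions per Mb, against 63.3 to 87.85 in the other 9, and the outermost segment held 87.6. The segment next to the centromere was the poorest on 3L (32.7 per Mb) and X (35.3 per Mb). On 2R (56.3 per Mb) it tied with segment 8 from the centromere. It held 71.0 per Mb on 2L and on 3R, where the poorest were segment 4 (28.3 per Mb) and segment 9 (64.6 per Mb), respectively. The longest stretches without ROW were 636926 bp on 2L (17500935 to 18137860), 434156 bp on X (11922633 to 12356788), 409426 bp on 2R (15561797 to 15971222), 406727 bp on 3R (2485805 to 2892531) and 346383 bp on 3L (23332853 to 23679235). The other proteins were sparse there too. The 3L stretch held no region of any list, and the other 4 held from 4 to 11 regions of the other lists in all.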

How the data were processed

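ChIP-Seq libraries of S2 cells for ROW, Z4, WOC, Dsk2 and HP1c and 2 inputs make up the 7 samples. The authors deposited, for each immunoprecipitation, a list of region positions with no counts or scores. Regions were called against input, per the series' design text, in 1 library each. CASAVA 1.8, FastQC 0.9.3, Bowtie 0.12.5 and the dm3 build are named in the submitters' processing notes. The sources used here do not give the peak caller, its threshold or the handling of duplicate reads, and a lower threshold or a deeper library would give more and wider regions.

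Samples were grouped by their labels. Regions overlapped when they shared at least 1 bp. Width classes began at 1, 50, 200, 500, 1000 and 2000 bp. Chains joined neighbours with at most 1000 bp between them, and windows of 100 kb started at the first base of an arm and counted region midpoints. Arm spans ran between the outermost positions of any list. No test was made, because each antibody had 1 library. The named regions are the 10 widest, the 5 densest windows, the 3 chains with most regions, the 3 widest without other proteins, the 3 overlapping most regions of other lists (of which the first is described apart, the others being among the widest) and the longest stretch without ROW on each large arm. The list and all comparisons were chosen with earlier results of these data known, and the comparisons of pairs with longer chains, of inner with outer edges and of X with the autosomal arms were chosen after the gaps and arms had been seen. The interval functions were tested on simulated data with planted overlaps, gaps and chains. Lists were handled with pandas 2.3.3 and NumPy 2.4.6 under Python 3.11.15, intervals came from SciPy 1.17.1, and plots from matplotlib 3.10.9.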

Additional observations from a re-analysis of the deposited data

How the results depend on the processing

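Of 96 values recomputed under other settings, 63 stayed within the main interval or, where no interval exists, within 1.5 times the main value. Only differences and ratios have a direction that could change, and none of these did. For shares, widths and counts no change of direction was possible. With only the midpoint of a ROW region counted, Z4 was found at 36.5% of ROW regions, WOC at 8.73%, Dsk2 at 7.37%, HP1c at 1.87% and no other protein at 60.4%. With at least 50% of the ROW region covered, the shares were 33.8%, 5.89%, 5.12%, 1.11% and 63.6%. With regions of at least 50 bp alone, they were 61.3% for Z4, 24.6% for WOC, 21.3% for Dsk2 and 34.1% for no other protein, the median ROW width was 357.5 bp, 16.9% of regions were at least 1 kb wide, 51.65% had a ROW neighbour within 1 kb, 22.4% were in chains of at least 3, and the density on 2R over X was 1.59. When each list was cut to its 50% widest regions, the shares were 50.97% for Z4, 24.05% for WOC, 21.1% for Dsk2, 8.49% for HP1c and 42.5% for no other protein. Coverage by Z4 in regions of at least 2 kb exceeded that in regions under 500 bp by 15.6 points. A distance of 500 bp gave 36.04% with a ROW neighbour and 10.7% in chains of at least 3, and one of 2000 bp gave 73.3% and 45.6%. In covered bases, 2R over X was 1.87. Among the settings chosen after seeing the data, the HP1c coverage of gaps in pairs minus longer chains was -1.86 points at 500 bp and -1.50 at 2000 bp, and HP1c at inner over outer edges was 2.06 at 500 bp. A stricter overlap lowers the shares with a partner, and a wider joining distance raises those with a neighbour, by construction. The cause of the other shifts was not tested. No paired analysis was possible because each antibody had 1 library. Depth is unknown, so regions missed for want of reads cannot be told from regions that are not bound.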

Other observations

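Of the 200 ROW regions with equal start and end, taken as 1 bp wide, 79.5% overlapped no other list (159 regions), against 38.2% of all ROW regions. Among the 200, 14.5% lay in a Z4 region (29 regions), 7% in a WOC region (14 regions), 6.5% in a Dsk2 region (13 regions) and 1.5% in an HP1c region (3 regions), and 65% had another ROW region within 1 kb. Their base coverage by WOC and Dsk2 was close to that of ROW regions of 50 to under 200 bp (7.03% and 6.30%), while that by Z4 was lower (36.4% in the wider class).

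On the heterochromatic and unplaced sequences of the build, 82 ROW regions were called, with a median width of 168 bp and a widest region of 2488 bp on 2RHet. Z4 overlapped 65.85% of them (54 regions), WOC 39.0% (32 regions), Dsk2 34.1% (28 regions) and HP1c 7.32% (6 regions). The WOC and Dsk2 shares stood above those of the whole ROW list (22.4% and 19.5%). No ROW region was called on the mitochondrial genome.

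Seen from the other side, the short gaps of the HP1c, Dsk2 and WOC lists held ROW more densely than the regions of these lists. ROW itself covered 44.7% of the bases of short HP1c gaps and 25.7% of HP1c regions (ratio 1.74), and the ratio was 1.34 for the Dsk2 list and 1.29 for the WOC list. For Z4 regions it was 0.928, with 50.9% of gap bases and 54.8% of region bases covered by ROW. In pairs of lists without ROW, the order was mostly the other way. Dsk2, for example, covered 32.8% of short HP1c gaps and 61.2% of HP1c regions. The only exception was HP1c in the Z4 list, with 6.97% of gap bases and 5.13% of region bases (ratio 1.36).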
